A study of Rattus norvegicus with 2 samples.

Results

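Collagens are proteins whose chains wind in trimers into a triple helix, and the chains fall into classes by the structures they build. Fibrillar collagens (types I, III and V among them) form the cross-striated fibrils that give the bladder wall its strength, and beaded filaments of type VI link those fibrils to cells. Fibril-associated collagens (types XII and XIV among them) lie on the surface of fibrils, type IV forms the sheet-like network of the basement membrane under the urothelium, and transmembrane collagens such as type XVII span the membrane of the cell that makes them. In most tissues fibroblasts and smooth muscle cells make the bulk of the fibrillar collagen, whereas epithelial cells contribute to basement membrane and transmembrane collagens.

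The collagen genes were taken as all genes whose symbol in the platform annotation is a collagen chain name (Col, the type number, a and the chain number), each represented by the probe set with the highest mean signal over both arrays among probe sets with a single symbol. This gave 42 collagen genes of 22093 named genes. They comprised 11 fibrillar, 5 basement membrane (type IV), 9 fibril-associated and 4 transmembrane collagens, together with 6 beaded filament collagens (type VI), 3 short-chain network collagens (types VIII and X), 2 multiplexins (types XV and XVIII) and 2 others (Col26a1 and Col28a1). Col4a6, Col7a1 and Col21a1 had no probe set with a single symbol here and were not analysed.

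Both arrays came from male F344 rats, an inbred strain, aged 114 weeks. The Control group drank water with 0 ppm of DMA (dimethylarsinic acid, which the body forms from inorganic arsenic by methylation), and the DMA-tumor group water with 200 ppm, from an age of 10 weeks and for 2 years. The Control array held pooled RNA of 5 bladders, labelled as epithelium although the methods speak of bladder tissue, and the RNA on the DMA-tumor array was a pool of 6 bladder carcinomas by the series design and of fewer by the methods. The tumors were taken to be urothelial carcinomas by their size, without histology. With 1 array of pooled RNA per group there is no replicate error and no test. Every difference below is a description of these 2 pools, and the number of arrays limits its precision.

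The values are probe set signals on a linear scale, and differences are log2 signal, DMA-tumor minus Control. Genes that reached a signal of 100 on either array were kept (12074 of all genes, 19 of the 42 collagen genes). The median difference over all kept genes was -0.08. Calls took the ratio and Z-score thresholds from the study's methods, which give no formula for the Z-score. The Z-score and the filter on either array were defined here, so the calls may differ from the study's. A gene called higher had a ratio of 2 or more and a Z-score of 2 or more, and a gene called lower had a ratio of 0.5 or less and a Z-score of -2 or less. The Z-score measured how far the difference of a gene lay from the mean over the kept genes, in units of their standard deviation (1.02). Signals thus had to be 3.92-fold higher, or 4.32-fold lower, for a call. Among the 10019 named genes under 100 on both arrays, the central 95% of differences ran from -0.71 to 0.62. This range is the spread between the 2 pools at low signal, in which measurement error and true differences cannot be separated.

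Of the 8 collagen genes that reached a signal of 1000 on the Control array, 7 were called lower in the tumor pool, and the exception was Col17a1 of the epithelial cell surface. These 8 were picked by a high Control signal, which leaves room for a decrease. The share called lower among all genes with such a Control signal was not computed, so this count is a description only. The type IV genes of the basement membrane read at most 159 on the Control array, so that a large decrease could not have been seen in them. Of the 19 kept collagen genes, 8 were called lower, against a background of 2.38% of all kept genes, and 0 were called higher, against 2.53%. The 8 were Col1a1, Col1a2 and Col3a1 (fibrillar), Col6a1, Col6a2 and Col6a3 (beaded filament), Col12a1 (fibril-associated) and Col15a1 (multiplexin). By a 2-fold ratio alone, 10 were lower (background 10.6%) and 1 was higher (background 8.90%). A gene that was kept only through the array where its signal was high had to differ, and this applies to Col4a1, Col5a1, Col8a1, Col14a1 and Col16a1, so the counts over kept genes describe the family without standing as evidence for it. Over all 42 collagen genes, kept or not, 31 had a negative and 10 a positive difference, and 1 had a difference of 0. Their median was -0.18, against -0.07 over all 22093 named genes. Of the 31, 18 were under 100 on both arrays. The share of negative differences over all named genes was not computed, so counts of signs here and below are descriptions only.

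**Figure D1:**
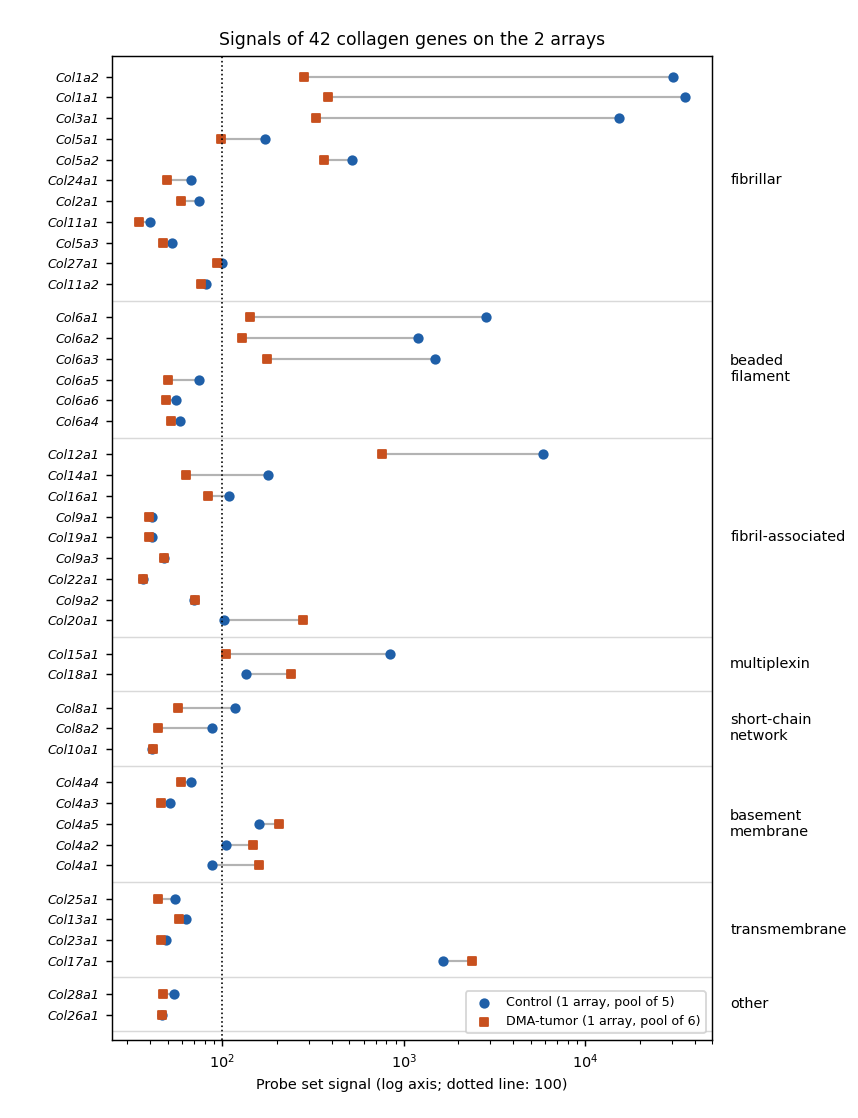
Probe set signals (log axis) of the 42 collagen genes, grouped by chain class, with a circle for the Control array and a square for the DMA-tumor array (1 array each). Among the fibrillar collagens, Col1a1, Col1a2 and Col3a1 move from between 15413 and 35375 to between 282 and 381, whereas the signals of the kept type IV chains lie between 88.0 and 206 on both arrays.

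The largest differences of the family were those of the fibrillar collagens Col1a1, Col1a2 and Col3a1. Col1a1 and Col1a2 encode both chains of type I collagen, the main protein of interstitial fibrils. Col1a1 read 35375 on the Control array and 381 on the DMA-tumor array, a 92.8-fold lower signal (log2 difference -6.54). Col1a2 read 30588 and 282 in the same order and was 108-fold lower (log2 difference -6.76), and a further probe set of Col1a2 gave 24407 and 255 (log2 difference -6.58). Both chains were thus lower by nearly the same factor, and their log2 differences lay 0.23 apart. Col3a1, the chain of type III collagen, which forms thin fibrils together with type I in distensible tissues, had signals of 15413 and 327 and was 47.2-fold lower (log2 difference -5.56). Ordered from the lowest difference upwards among the 12074 kept genes, Col1a2 stood at place 5, Col1a1 at place 7 and Col3a1 at place 16.

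Type V collagen, which sits inside type I fibrils and governs their assembly and diameter, had a small difference in Col5a2 and a bound in Col5a1. Col5a1 had signals of 172 and 98.4, which was at least 1.72-fold lower (for such bounds a value under 100 was raised to 100), and from a Control signal of 172 no larger bound was possible. Col5a2 had signals of 517 and 365 and was 1.42-fold lower (log2 difference -0.50). Neither was called, and both lay within a 2-fold ratio as measured. Col5a2 and Col3a1 are neighbours on chromosome 9, with 0 annotated genes between them, and yet their log2 differences lay 5.06 apart, a 33.3-fold difference in ratio. The other 6 fibrillar collagens were under 100 on both arrays. They were Col2a1, Col11a1 and Col11a2, which form the fibrils of cartilage, Col5a3, Col24a1 and Col27a1. Of these, Col27a1 came closest to being kept, with signals of 99.8 and 93.7. The median difference over the 5 kept fibrillar collagens was -5.56 and over all 11 was -0.43, and all 11 differences were negative.

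The bases upstream of 4 members are shown as examples of different outcomes. They are Col1a2, with the lowest difference, Col6a1, a type VI chain called lower, Col5a2, the neighbour of Col3a1 with a small difference, and Col17a1, the transmembrane chain with a clear signal on both arrays. Each run holds the 250 bases before the annotated start, 5′ to 3′ on the gene's strand, from RefSeq (build GRCr8). Capitals mark matches on either strand to 4 short promoter motifs, which were the CCAAT box (letters CCAAT), the GC box (letters GGGCGG), the TATA box (letters TATAAA) and the site of AP-1 factors (letters TGANTCA).
Col1a2, chr4:33518307-33518556, plus strand: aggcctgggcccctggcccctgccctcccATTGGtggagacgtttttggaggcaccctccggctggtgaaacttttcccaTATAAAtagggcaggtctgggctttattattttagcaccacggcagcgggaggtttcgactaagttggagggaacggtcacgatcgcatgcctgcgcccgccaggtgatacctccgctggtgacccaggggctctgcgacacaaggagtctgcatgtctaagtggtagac
Col6a1, chr20:11905440-11905689, plus strand: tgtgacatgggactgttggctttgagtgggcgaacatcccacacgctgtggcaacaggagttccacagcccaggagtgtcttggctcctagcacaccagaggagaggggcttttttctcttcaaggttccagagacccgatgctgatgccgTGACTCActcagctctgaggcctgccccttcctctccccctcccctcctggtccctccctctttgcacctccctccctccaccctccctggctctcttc
Col5a2, chr9:55090152-55090401, minus strand: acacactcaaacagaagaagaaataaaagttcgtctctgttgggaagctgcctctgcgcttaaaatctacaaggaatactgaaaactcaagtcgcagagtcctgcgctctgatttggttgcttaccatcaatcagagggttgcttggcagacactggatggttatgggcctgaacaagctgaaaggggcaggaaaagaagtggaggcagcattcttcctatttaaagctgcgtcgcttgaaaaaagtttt
Col17a1, chr1:256518858-256519107, minus strand: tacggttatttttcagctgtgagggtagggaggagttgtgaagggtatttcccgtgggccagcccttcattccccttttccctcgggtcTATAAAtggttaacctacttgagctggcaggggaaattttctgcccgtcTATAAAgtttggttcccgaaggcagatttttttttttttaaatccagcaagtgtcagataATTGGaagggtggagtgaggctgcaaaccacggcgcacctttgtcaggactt
Windows were found for 33 of the 42 collagen genes. Of the 8 members called lower, Col1a1, Col3a1, Col6a2 and Col12a1 had none. The Col1a2 window held 1 CCAAT match on the opposite strand and 1 TATAAA match. The Col17a1 window held 1 CCAAT match and 2 TATAAA matches, so these motifs were present both in the member with the lowest difference and in 1 with a positive difference. The Col6a1 window held 1 TGANTCA match, and the Col5a2 window had none of the 4 motifs. Over all 33469 windows of this length in the table, CCAAT was present in 34.0%, GGGCGG in 30.5%, TATAAA in 12.9% and TGANTCA in 6.34%. No motif contains another, and a match describes letters in this window and not a bound site.

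Beaded filament collagens were lower in the DMA-tumor array for each of the chains that make the common type VI trimer. Col6a1 had signals of 2848 and 143 and was 19.9-fold lower (log2 difference -4.32). Col6a2 had signals of 1194 and 129 and was 9.26-fold lower (log2 difference -3.21). Col6a3, the long chain that joins them, had signals of 1478 and 177 and was 8.37-fold lower (log2 difference -3.07). Col6a2 and Col6a3 thus differed from each other by 0.15 on the log2 scale, while Col6a1 lay 1.11 below Col6a2, its near neighbour on chromosome 20. Col6a4, Col6a5 and Col6a6, alternative chains for the place of Col6a3, were under 100 on both arrays, with differences of -0.17, -0.56 and -0.19. All 6 type VI differences were negative, with a median of -3.21 over the 3 kept genes and of -1.81 over all 6.

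Fibril-associated collagens went both ways. Col12a1, which decorates type I fibrils, had signals of 5830 and 758 and was 7.69-fold lower (log2 difference -2.94), and a further probe set gave 2459.8 and 417 (log2 difference -2.56). In the DMA-tumor array the 758 of Col12a1 was the highest signal among the 8 genes called lower, whose other tumor signals ran from 105 to 381. Col14a1, also a ligand of fibril surfaces, had signals of 178 and 62.7 and was at least 1.78-fold lower. Col16a1 had signals of 109 and 82.9 (at least 1.09-fold lower). Col20a1 was the 1 collagen gene with a signal at least 2-fold higher in the DMA-tumor array, at 102 and 277 (2.73-fold, log2 difference 1.45), and it did not meet the Z-score criterion. The other 5, among them the type IX chains Col9a1, Col9a2 and Col9a3 of cartilage, Col19a1 and Col22a1, were under 100 on both arrays, and their differences ran from -0.06 to 0.01. The median over the 4 kept genes was -0.95 and over all 9 was -0.04.

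**Figure D2:**
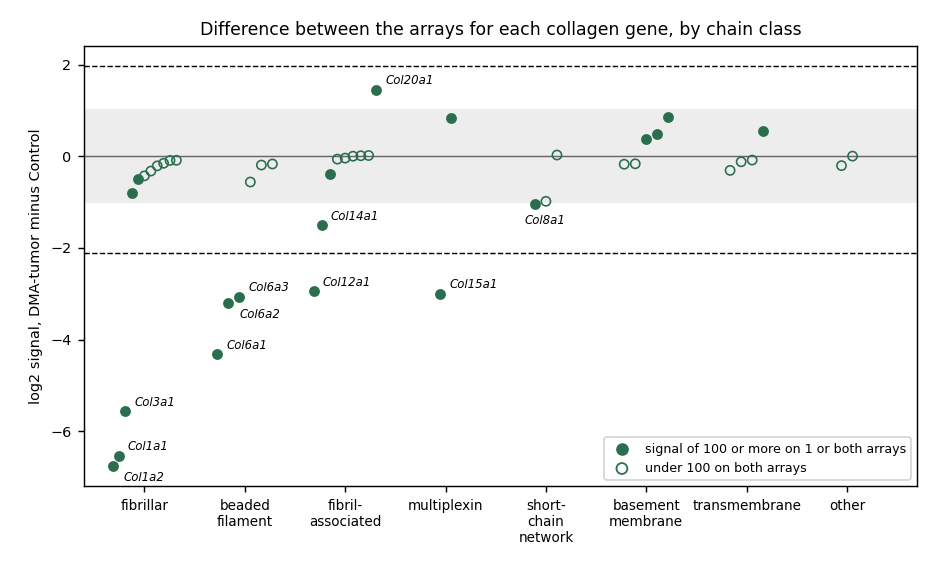
Difference in log2 signal, DMA-tumor minus Control, for each of the 42 collagen genes by chain class; filled points reached 100 on either array and open points were under 100 on both. The shaded band is within 2-fold and dashed lines mark the call criteria at 1.97 and -2.11. The 8 points under the lower line are 3 fibrillar, 3 beaded filament, 1 fibril-associated and 1 multiplexin gene, and 0 points lie above the upper line.

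Basement membrane collagens had low signals on both arrays, which left little room for a decrease. Col4a1 and Col4a2 form the type IV trimer present in nearly all basement membranes. Col4a1 had signals of 88.0 and 160, which was at least 1.60-fold higher, and Col4a2 had signals of 105 and 147 (log2 difference 0.48). Col4a5, a chain of the type IV networks of kidney and some epithelia, had signals of 159 and 206 (1.30-fold higher, log2 difference 0.38). These 3 genes had a small positive difference each, within 2-fold, close to the low-signal limit and without a call. Col4a3 and Col4a4, partners of Col4a5 in the glomerular basement membrane, were under 100 on both arrays, at 51.3 and 45.7 and at 66.9 and 59.3. The median over the 5 measured type IV genes was 0.38, and that over the 3 kept genes was 0.48.

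The genes of this class lie in head-to-head pairs. The annotated starts of Col4a1 and Col4a2 on chromosome 16 are separated by 76 bases, shown here because both genes are transcribed away from this shared stretch and their differences had the same sign. It is 78.9% G or C and holds 1 GGGCGG match on the opposite strand (capitals), with 0 matches to the other 3 motifs.
Col4a1 to Col4a2, chr16:84885521-84885596, plus strand (the strand of Col4a1): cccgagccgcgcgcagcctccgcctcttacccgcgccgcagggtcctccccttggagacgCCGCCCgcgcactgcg
The starts of Col4a3 and Col4a4 on chromosome 9 are 412 bases apart, and both genes were at low signal, with differences of -0.17 each.

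Multiplexins are collagens of basement membrane zones with interrupted helices. Col15a1, found around muscle fibres, capillaries and nerves, had signals of 838 and 105 and was 7.97-fold lower, and a further probe set gave 752 and 106 (log2 difference -2.83). Col18a1, whose C-terminal fragment is endostatin, had signals of 134 and 238 and was 1.77-fold higher (log2 difference 0.83). The log2 differences of these related chains lay 3.82 apart and had opposite signs. Among the short-chain network collagens, Col8a1, a product of vessel wall and corneal endothelial cells, had signals of 117 and 56.7 (at least 1.17-fold lower). Its partner Col8a2 had 87.4 and 44.2, under 100 on both arrays, with a log2 difference of -0.98, the lowest among the members that were not kept. Col10a1, a marker of hypertrophic cartilage, was near 41 on both arrays (41.0 and 41.7).

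Transmembrane collagens had 1 member with a clear signal. Col17a1, the hemidesmosomal collagen of basal epithelial cells, had signals of 1636 and 2378 and was 1.45-fold higher in the DMA-tumor array (log2 difference 0.54), within 2-fold and without a call. It was the 1 collagen gene of the 42 that reached 1000 on the DMA-tumor array, whereas 8 did so on the Control array. Col13a1, Col23a1 and Col25a1 were under 100 on both arrays, with differences of -0.12, -0.08 and -0.31. The median over the 4 measured genes was -0.10 and rests on these low signals.

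In all, 23 collagen genes were under 100 on both arrays, with signals from 34.7 to 99.8. Their differences ran from -0.98 to 0.03, with 18 negative, 4 positive and 1 at 0 and a median of -0.15. Of these, Col8a2 alone lay outside the central 95% of named genes at such signals. Col26a1 had signals of 46.7 on both arrays and Col28a1 had 54.4 and 47.1. The collagens of cartilage in this set were accompanied by low signals of other cartilage genes, since 7 of 8 chondrocyte markers were under 100 on both arrays and the remaining one, Sox9, had 271 and 247.

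The levels of stromal and epithelial markers also differed between the pools. The shares of all kept genes called higher (2.53%) and lower (2.38%) are the background for the calls in these lists too. For a 2-fold ratio alone the shares are 8.90% higher and 10.6% lower. Only kept members were counted, which left 9 smooth muscle, 8 basal and squamous, 8 macrophage and 2 Schwann cell markers. In the fibroblast, endothelial and umbrella lists all measured members were kept. Log2 differences are of the values as measured. Of the called markers, Lum, Ogn, Dpt, Pdgfra, Mfap5, Des, Cnn1, Plvap, Krt20, Dsg3 and Ncam1 were kept only through the array where their signal was high. Such genes had to differ, so these counts too are descriptions only. With the low value raised to 100, Mfap5 was at least 3.91-fold and Ncam1 at least 3.32-fold lower, under the 4.32-fold of a call. Of 13 fibroblast markers outside the collagens, 9 were called lower and 0 higher. The 13 summed to a signal of 99633 for the Control pool and of 10769 for the tumor pool. Dcn gave 57824 of the Control sum and Gsn 9087 of the tumor sum, so these sums mainly follow single genes. The called genes were Dcn, Ogn, Dpt, Pdgfra, Mfap4, Lum, Fbln1, Thy1 and Mfap5, with log2 differences from -8.84 (Dcn) to -2.42 (Mfap5). Dcn, the proteoglycan decorin, which binds type I fibrils, went from 57824 to 126, and Pdgfra, a receptor of fibroblasts, from 3789 to 74.5. Among those not called, Pdgfrb, shared by fibroblasts and pericytes, had signals of 216 and 172, and Gsn had 9673 and 9087. Of 10 smooth muscle markers (summed signal 57998 and 4777, of which Acta2 gave 36479 and 3292), 8 were called lower and 0 higher. They were Des, Cnn1, Actg2, Myh11, Tagln, Acta2, Mylk and Synpo2, with Des, the muscle intermediate filament desmin, at 3239 and 79.3. The 9 endothelial markers went both ways, with summed signals of 3566 and 3923. Plvap, a protein of endothelial diaphragms, was called lower at 470 and 91.6, whereas 3 others were at least 2-fold higher without a call, namely Vwf (69.6 and 217), Kdr (449 and 1072) and Flt1 (215 and 499). Of 10 umbrella and intermediate urothelium markers, 4 were called lower (Upk2, Krt20, Krt18 and Snx31), 9 were at least 2-fold lower and 0 higher (summed signal 2164816 and 707963). The uroplakin Upk2 went from 523348 to 107621, and the member outside the 9, Krt19, had signals of 135323 and 177216. Of 10 basal and squamous markers, 5 were called higher (Krt14, Cd44, Dsg3, Krt17 and Ivl) and 0 lower. The basal keratin Krt14 had signals of 2865 and 133451, but Krt15, a further basal keratin, had 148057 and 38815 (3.81-fold lower, not called), and Tp63, a transcription factor of basal cells, had 12277 and 13519. The summed signal of this list (167726 and 236903) thus holds opposite differences. Of 9 macrophage markers, Laptm5 was called lower (1194 and 262), 5 were at least 2-fold lower, among them Mrc1 (335 and 109), Csf1r (714 and 235) and Ctss (519 and 187), and Cd14 was 2.04-fold higher, with summed signals of 3990.4 and 2011. Of 4 Schwann cell markers, Ncam1 was called lower (332 and 64.2) and Mbp had 131 and 129, and the list summed to 571 and 275. The Control pool thus carried strong fibroblast and muscle signals despite its label as epithelium. The part of these markers in the collagen differences was not tested, and in pooled tissue fewer cells of a type and less RNA per cell cannot be told apart.

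Genes that build, process, cut or bind collagen were followed in 8 lists with 74 measured genes, of which 59 were kept. Of these, 7 were called higher and 7 lower, beside the background shares of 2.53% and 2.38% given above, and their median difference was -0.07. In contrast to the collagen chains, calls therefore lay on both sides. Of the called genes, Mmp13, Mmp2, Adamts2, Itga11 and Ddr2 were kept only through the array where their signal was high. Such genes had to differ, so these counts are a description only.

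Among 14 enzymes that hydroxylate or glycosylate nascent chains, 1 was called higher and 0 lower, with a median over 11 kept genes of 0.00. P3h2, a prolyl 3-hydroxylase that acts on type IV collagen, had signals of 188 and 2712 and was 14.4-fold higher (log2 difference 3.85). P4ha1, a catalytic subunit of the prolyl 4-hydroxylase that stabilises the triple helix, had signals of 1259 and 3683 (2.93-fold higher, not called), and its partner P4hb had 14658 and 24763. P3h1, which modifies type I collagen, had 284 and 187.

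Among 10 genes of chaperones and secretion, 2 were called lower and 0 higher, with a median of -1.09. Creb3l1, a membrane-bound transcription factor known in mouse to drive type I collagen synthesis in bone, had signals of 3189.7 and 106 with a log2 difference of -4.90. Sparc, a collagen-binding matrix protein, had 74937 and 13540 and was 5.53-fold lower. The collagen chaperone Serpinh1 (HSP47) had 1058 and 373, and the prolyl isomerase Fkbp10 had 376 and 153, both more than 2-fold lower without a call.

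Among 7 propeptide proteinase genes, of which 3 were kept, 1 was called lower. Adamts2, which removes the amino-terminal propeptide of fibrillar procollagens, had signals of 436 and 99.8 (at least 4.36-fold lower), while Bmp1, which removes the carboxy-terminal one, had 446 and 895 (2.01-fold higher, not called), and the enhancer of that cleavage, Pcolce, had 506 and 378. Among 5 cross-linking enzymes of the lysyl oxidase family, Loxl4 was called higher, at 227 and 1213 (5.34-fold), whereas Lox had 218 and 76.5, Loxl2 290 and 151 and Loxl1 122 and 69.4, each lower without a call.

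Genes of breakdown and uptake, 9 measured and 5 kept, split widely. Mmp13, the interstitial collagenase of rodents, read 82.4 and 70819 (at least 708-fold higher), and Mmp2, a gelatinase, had 3181 and 74.4 (at least 31.8-fold lower). Ctsk, a collagen-degrading cathepsin, had 303 and 82.3, and the endocytic receptor Mrc2 had 754 and 540, neither called. Among 10 collagen receptor genes, of which 7 were kept, 1 was called higher and 2 lower. Itga2, the integrin subunit for type I collagen on epithelial cells, had signals of 126 and 3319 (26.3-fold higher), and Itga1, a subunit with preference for type IV, had 182 and 666 (3.65-fold higher, not called). Itga11, an integrin subunit of fibroblasts, had 889 and 65.4 (at least 8.89-fold lower), and Ddr2, a receptor kinase for fibrillar collagen, had 620 and 84.1 (at least 6.20-fold lower).

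The basement membrane partners of type IV collagen were mixed as well. Of 14 measured genes, 2 were called higher and 1 lower, with a median over 13 kept genes of 0.997. The laminin chain Lama5 had signals of 239 and 1598 (6.68-fold higher), and Lama3, a chain of the laminin under hemidesmosomes, had 1519.8 and 7425 (4.89-fold higher). Lamb3, a further chain of that laminin, had 2859.7 and 8212. Nid1, the linker of laminin to type IV collagen, had 6942 and 1045 (6.65-fold lower). Of 5 hemidesmosome partners of Col17a1, Itgb4 was called higher, at 1722 and 11337 (6.58-fold), Itga6 had 13688 and 38928 (2.84-fold higher), Dst had 4917 and 10122 (2.06-fold higher) and Plec had 2566 and 2442. The ratio of Col17a1 (1.45-fold) was thus lower than that of Itgb4 and above that of Plec.

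**Figure D3:**
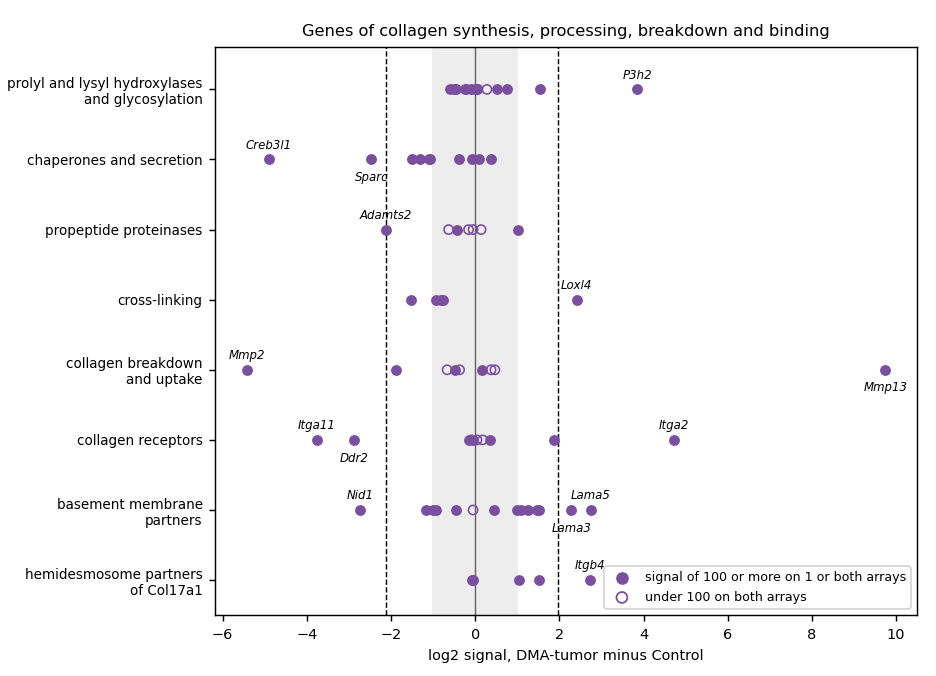
Difference in log2 signal, DMA-tumor minus Control, for 74 genes in 8 lists of collagen synthesis, processing, breakdown and binding; filled points reached 100 on either array, open points were under 100 on both, and called genes are named. The shaded band is within 2-fold and dashed lines mark the call criteria; 7 points lie beyond each line, with Mmp13 at 9.75 and Mmp2 at -5.42 (values as measured) at the ends.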

How the data were processed

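Per the labels, TRIzol was used for total RNA and a whole-transcript kit for labelling. Expression Console 1.4.1 (Affymetrix) and RMA are listed in the submitters' processing notes, whereas the methods describe another rat array, normalization to a global median and removal of signals under 100. The deposited values are linear intensity values from 5.60 to 820532, medians 50.6 and 52.3, with signals under 100 present, so the normalization step is not settled. The probe sets carry transcript cluster names, which the array named does not use. No further normalization was applied.

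Of 68842 probe sets, 23446 had 1 gene symbol in the platform annotation, 505 had several and 44891 had none listed. All 42 collagen symbols were found in the RefSeq gene table. There were 0 columns of other series. The collagen genes and lists were chosen with earlier results of these data known. Every collagen gene is named, and of each other list the called members and up to 4 kept members of largest difference. Pdgfrb, Gsn, Krt15, Krt19, Tp63 and Cd14 were added after their values were seen. Where the lower signal was under 100, it was set to 100 and the fold given as at least that value, while log2 differences and calls use the values as measured. The code for the calls was checked on simulated data with large differences planted in genes of clear signal, which does not bear on calls at low signals. Alternatives were other signal filters (none, 100 on both arrays, 32 on 1), other scalings (array medians, quantile, loess with span 0.3), low values raised to 100, the mean of probe sets, Z-scores in 20 bins, a 1.5-fold ratio and a wider basement membrane class. Scripts ran under Python 3.11.15 with pandas 2.3.3, numpy 2.4.6, matplotlib 3.10.9 and, for loess, statsmodels 0.14.6.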

Additional observations from a re-analysis of the deposited data

How the results depend on the processing

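The same 8 collagen genes were called lower and 0 were called higher under each of the filters, scalings and probe set rules tried and with Z-scores within signal bins. The differences of the 19 kept genes kept their sign and call in 95 of 95 recalculations (other scalings, low values raised to 100, mean of probe sets). The scaling that moved all genes most, quantile normalization, shifted the median of all kept genes by -0.27, and removal of the loess trend by -0.12; the median of the kept type IV genes was then 0.16 and 0.35. Medians of classes depended on which low members were counted. With no filter or a filter of 32, the fibrillar median was -0.43, the fibril-associated median -0.042 and the transmembrane median -0.10, the last with the opposite sign. With array medians, quantile normalization or loess, Col27a1 passed the filter and the fibrillar median was -3.23, -3.50 and -3.28. At a 1.5-fold ratio 3 genes were higher, since Col4a1 and Col18a1 joined Col20a1, and 11 were lower, since Col5a1 joined. Of all 12074 kept genes, 2017 were higher and 2599 lower at that ratio, so these counts are a description only. Col5a1 was also at least 2-fold lower under quantile normalization (log2 difference -1.09). Col8a1 and Col14a1 were no longer 2-fold lower with low values raised to 100, leaving 8. No paired analysis was possible because each group had 1 array. Signals near 100 limit the type IV, type VIII and type XVIII values.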

Other observations

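Col9a3 had the same signal, 47.8, on both arrays to the last deposited digit. The same held for 16 of the 68842 probe sets.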
